A study of Macaca fascicularis
Homo sapiens with 2 samples.

Results

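Amino acid transporters are described here in human and cynomolgus macaque cells that lack UGP2, the enzyme that makes UDP-glucose, before neural induction (day 0) and on its day 7. The genes were taken by name: every symbol starting with SLC1A, SLC3A, SLC6A, SLC7A, SLC36A, SLC38A or SLC43A, whatever its level. This gave 60 symbols, of which 59 are transporter genes or their subunits and 1, SLC7A6OS, is a separate gene on the strand opposite SLC7A6. All 59 are among the 20669 human genes counted, and 56 are among the 22504 cynomolgus genes, where SLC6A8, SLC7A10 and SLC43A2 have no gene of that symbol. At 5 CPM (counts scaled to a common library total) or more on either day, 34 were measured in the human line, 30 in the cynomolgus line, 29 in both and 35 in either.

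Both lines are UGP2 knockouts: 56A1 is an induced pluripotent line of the macaque, and H9 an embryonic stem cell line of human origin. Below, H9 stands for the human and 56A1 for the cynomolgus cells, and paired values joined by "then" are day 0 and day 7. Cells of both species were mixed in equal amounts, so day 0 and day 7 are 1 droplet library each, and a cell's species was read from the genome that at least 90% of its UMIs (counted molecules) mapped to. On day 0 the cells were pluripotent and in UPPS medium. By day 7 they had been in a neural medium with N2 and B27 supplements, insulin, non-essential amino acids, GlutaMAX (a stable glutamine dipeptide), 2-mercaptoethanol, 10 µM SB431542 and 100 nM LDN193189, inhibitors of activin and BMP receptors. The composition of UPPS is not given in the sources used here, and time and medium cannot be told apart. How many clones each knockout line comes from is not given in the sources used here, and the series as used here held no cells with intact UGP2.

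Amino acids enter cells through several carrier families that divide the work by charge and by driving force. Light chains of the SLC7 family pair with a heavy chain, usually SLC3A2 (CD98), which brings them to the surface; they exchange one amino acid for another, as SLC7A5 does with leucine and SLC7A11 with cystine and glutamate. SLC1A5 and the SLC38 family carry glutamine and other small neutral amino acids, the SLC7 CAT proteins carry arginine and lysine, and the SLC6 family carries neurotransmitters, taurine, creatine and some amino acids. Several of these genes are textbook targets of ATF4, the transcription factor that answers amino acid shortage.

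There were 5206 H9 and 2016 56A1 cells on day 0, then 8173 and 6467 on day 7, with 10683788 to 43723892 own-species non-mitochondrial UMIs per species and day. Filtered barcodes assigned to no species made up 38.2% on day 0 and 9.16% on day 7. The libraries shared 50 barcode sequences, of which 30 belonged to species-called cells in both libraries. UGP2 itself was still counted, at 216.6 then 87.0 CPM in H9 and 326.9 then 76.8 CPM in 56A1 cells; a 3′ tag does not check a knockout whose deleted part is not stated. The summed level of the pluripotency markers was 6294 then 1779 CPM in H9 cells and 2645 then 878 CPM in 56A1 cells. That of the neural progenitor markers was 609 then 5288 CPM in H9 cells and 501 then 4932 CPM in 56A1 cells. These sums cover 20 human and 14 cynomolgus pluripotency genes, and 19 and 17 neural progenitor genes. Of pluripotency genes at 5 CPM or more, 14 of 18 in H9 cells were at least 2-fold lower and 0 higher. In 56A1 cells 7 of 11 were lower by as much and 2 higher. Neuron markers summed to 498 then 799 CPM in H9 cells and 778 then 335 CPM in 56A1 cells. Of those at 5 CPM or more on either day, 2 of 4 in H9 cells were at least 2-fold higher on day 7 and 1 lower. In 56A1 cells 3 of 7 were higher by as much and 2 lower, although the sum was lower. The median log2 changes of these neuron markers were 0.88 and 0.63, against 0.05 and 0.06 over all measured genes. Mesendoderm markers stayed under 7.4 CPM in each group. Amnion and surface ectoderm markers summed to 544.8 then 125.3 CPM in H9 and 239.1 then 18.5 CPM in 56A1 cells, and neural crest markers to 65.1 then 42.6 CPM and 29.8 then 21.2 CPM. The part of these other cell types in the results was not tested. With 1 library per day there is no replicate and no test: intervals are exact Poisson 95% intervals that cover counting error only, and "at least 2-fold" is a description of size on the log2(CPM + 1) scale. In summed cells, fewer expressing cells and less RNA per cell cannot be told apart.

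The transporters were lower on day 7 more often than higher, in both species. Of 34 measured in H9 cells, 14 were lower by 2-fold or more, 5 were higher by as much and 15 changed less, where 14.4% of all 12010 genes measured the same way were at least 2-fold lower and 14.9% at least 2-fold higher. In 56A1 cells 13 of 30 were lower by 2-fold or more, 2 were higher by as much and 15 changed less, where 11% of 11276 genes were at least 2-fold lower and 13.8% at least 2-fold higher. Their median log2 change was -0.85 in H9 cells and -0.90 in 56A1 cells, against 0.05 and 0.06 over all measured genes. The summed level of all transporters was 1865 CPM on day 0 then 1221 CPM on day 7 in H9 cells, and 2037 then 1364 CPM in 56A1 cells. Some members were bound to be lower or higher by the 5 CPM minimum: 7 of the 34 human and 6 of the 30 cynomolgus ones reached 5 CPM on day 0 alone, and 2 in each species on day 7 alone.

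**Figure D1:**
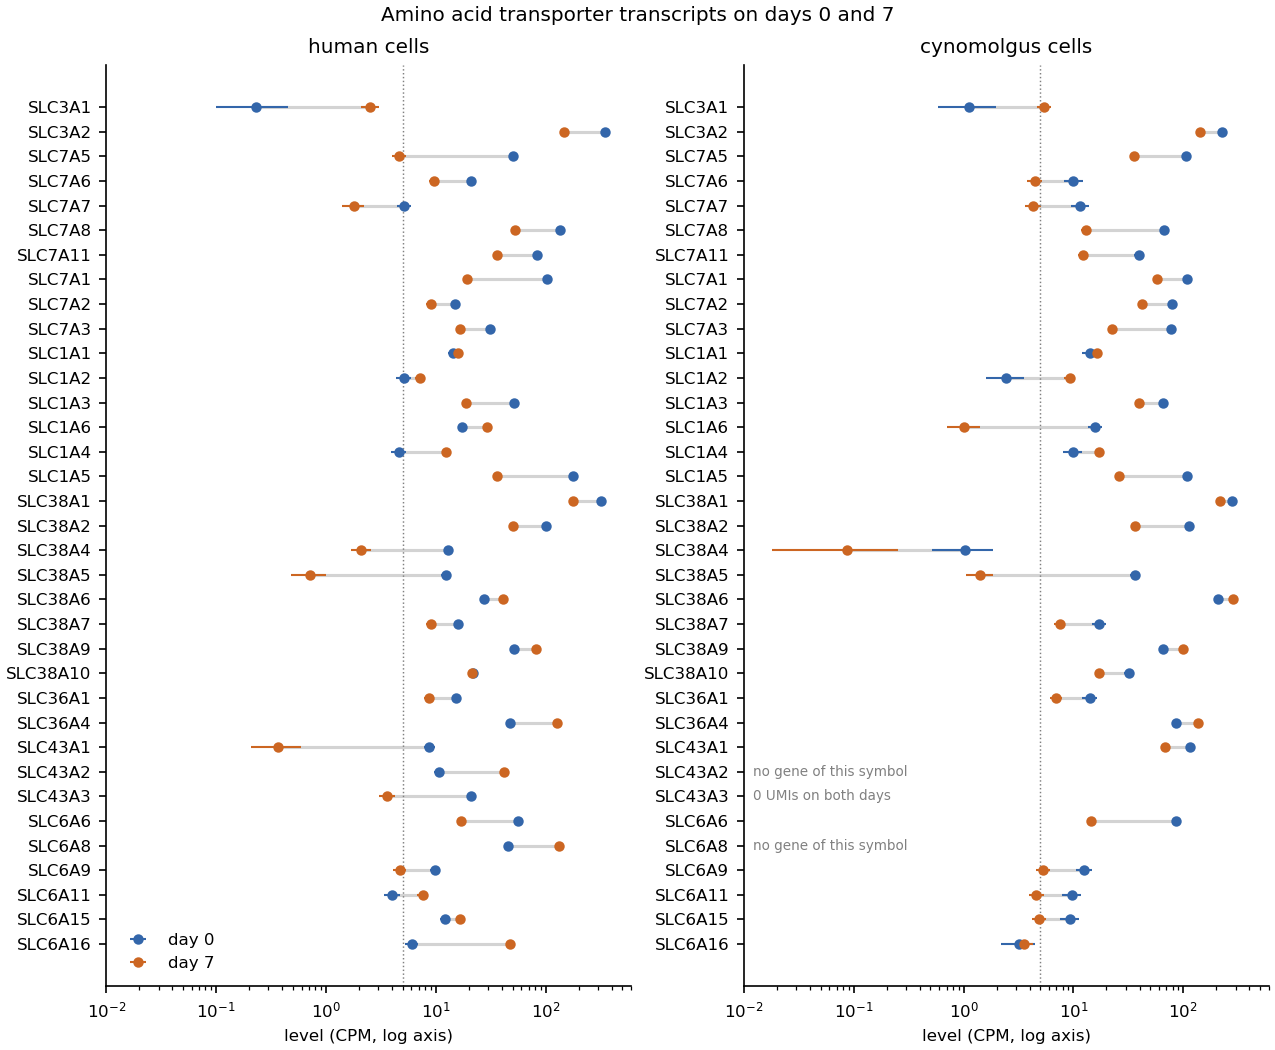
Level of each transporter measured in either species, in CPM on a log axis, with human cells on the left and cynomolgus cells on the right. Blue points are day 0, orange points day 7, bars are exact Poisson 95% intervals, and the dotted line marks 5 CPM. SLC3A2 lies at 346.3 then 145.9 CPM in H9 cells, and most orange points lie left of the blue ones.

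The CD98 heavy chain and its light chain partners were lower on day 7 in both species. SLC3A2 (ENSG00000168003 in human, ENSMFAG00000032262 in cynomolgus) stood at 346.3 CPM (340.2 to 352.6) before induction and 145.9 CPM on day 7 (142.4 to 149.5) in H9 cells, 2.37-fold lower. In 56A1 cells it stood at 224.4 CPM (215.5 to 233.5) and 142.6 CPM (138.7 to 146.6), 1.57-fold lower. The day 0 values lay further apart than the day 7 values, which overlapped in their intervals.

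SLC7A5 (ENSG00000103257, ENSMFAG00000041887), the leucine exchanger LAT1, stood at 50.7 CPM (48.4 to 53.1) before induction and 4.62 CPM on day 7 in H9 cells, 11.0-fold lower. The cynomolgus level was 105.6 CPM (99.5 to 111.9) and 35.9 CPM (33.9 to 37.9), 2.94-fold lower. SLC7A8, the related exchanger LAT2, showed the reverse order of species. It stood at 135.9 then 53.1 CPM in H9 cells, 2.56-fold lower, and at 66.9 then 13.0 CPM in 56A1 cells, 5.14-fold lower.

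The mix of light chains differed between the lines on both days. Of UMIs on the CD98 partners SLC7A5, SLC7A6, SLC7A7, SLC7A8, SLC7A10 and SLC7A11 in H9 cells, SLC7A5 took 16.9% at first (95% interval, exact binomial, 16.2% to 17.6%) and 4.33% a week later (3.76% to 4.95%). In 56A1 cells, where no gene is named SLC7A10, it took 45.2% (43.2% to 47.2%) and 51.4% (49.4% to 53.4%). SLC7A8 was the largest of these in H9 cells, at 45.3% and 49.7%, and took 28.6% and 18.6% in 56A1 cells. The 2 annotations can end a gene at different places, which moves 3′ tag counts, and this was not tested for any level set across species.

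SLC7A11, the cystine importer xCT that feeds glutathione synthesis, stood at 83.3 CPM (80.3 to 86.4) before induction and 36.1 CPM on day 7 (34.3 to 37.9) in H9 cells. The cynomolgus cells had 39.6 CPM (35.9 to 43.6) and 12.2 CPM (11.1 to 13.4). The log2 changes were -1.18 and -1.62. SLC7A6, the y+LAT2 chain, stood at 20.9 then 9.65 CPM in H9 cells and 10.02 then 4.45 CPM in 56A1 cells, with log2 changes of -1.04 and -1.02, at the edge of the 2-fold limit. SLC7A6OS overlaps it and stood at 25.5 then 27.7 CPM in H9 cells and 26.2 then 47.9 CPM in 56A1 cells; whether the counting used strand is not given in the sources used here. SLC7A7, the y+LAT1 chain, stood at 5.13 then 1.78 CPM in H9 cells and 11.5 then 4.30 CPM in 56A1 cells. SLC3A1, the heavy chain of the kidney cystine carrier, was 1 of the 2 members at least 2-fold higher on day 7 in 56A1 cells. It stood at 1.123 then 5.37 CPM there, from 12 UMIs on day 0. In H9 cells it stayed under the 5 CPM minimum, at 0.231 then 2.54 CPM, from 8 UMIs on day 0.

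The cationic carriers that bring in arginine and lysine were also lower on day 7. SLC7A1 (ENSG00000139514, ENSMFAG00000043457), the widely expressed CAT1, started level in the 2 lines, at 101.9 CPM (98.6 to 105.3) in human and 107.6 CPM (101.5 to 114.0) in cynomolgus day 0 cells. On day 7 it stood at 19.2 CPM (17.9 to 20.6) and 57.9 CPM (55.3 to 60.4), so it was 5.31-fold lower in H9 and 1.86-fold lower in 56A1 cells. SLC7A3 (CAT3) differed the other way, at 30.9 then 16.4 CPM in H9 cells, 1.88-fold lower, and 77.8 then 22.3 CPM in 56A1 cells, 3.49-fold lower. SLC7A2 (CAT2) stood at 14.9 then 9.03 CPM in H9 cells and 78.5 then 42.0 CPM in 56A1 cells, with log2 changes of -0.67 and -0.89. The 3 genes together came to 147.7 then 44.7 CPM in H9 cells and 264.0 then 122.2 CPM in 56A1 cells.

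Among glutamine carriers, SLC1A5 and SLC38A5 were far lower on day 7 and SLC38A1 was less than 2-fold lower. SLC1A5 (ENSG00000105281, ENSMFAG00000044927), the exchanger ASCT2, stood at 176.3 CPM (172.0 to 180.8) before induction and 36.3 CPM on day 7 (34.5 to 38.1) in H9 cells. The cynomolgus level was 108.5 CPM (102.3 to 114.9) and 26.2 CPM (24.5 to 27.9). It was 4.86-fold and 4.14-fold lower, a similar size in both lines. Its relative SLC1A4 (ASCT1), which carries serine and alanine, was higher on day 7, at 4.59 then 12.3 CPM in H9 cells and 9.92 then 17.1 CPM in 56A1 cells.

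SLC38A5, a glutamine and glycine carrier, had the largest decrease among the 30 transporters measured in 56A1 cells. It stood at 36.1 CPM (32.6 to 39.9) before induction and 1.41 CPM on day 7 (1.05 to 1.87) in 56A1 cells, 25.5-fold lower, and at 12.3 then 0.709 CPM in H9 cells, 17.4-fold lower. SLC38A1 (SNAT1) was among the most abundant members in each group, at 318.7 CPM (312.7 to 324.7) and 178.4 CPM (174.5 to 182.4) in H9 cells, 1.79-fold lower. In 56A1 cells it stood at 278.2 CPM (268.3 to 288.4) and 215.7 CPM (210.9 to 220.7), 1.29-fold lower. SLC38A2 (SNAT2), a textbook amino acid response gene, stood at 100.3 then 51.0 CPM in H9 cells and 112.3 then 36.2 CPM in 56A1 cells, with log2 changes of -0.96 and -1.61. SLC38A4 was measured in H9 cells alone, at 13.0 then 2.10 CPM, and stood at 1.03 CPM or less in 56A1 cells.

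Carriers known from lysosomes and other internal membranes went both ways. SLC36A4 (ENSG00000180773, ENSMFAG00000041537), a high-affinity carrier of proline and tryptophan, stood at 47.7 CPM (45.4 to 50.1) before induction and 127.6 CPM on day 7 (124.3 to 131.0) in H9 cells, 2.68-fold higher. In 56A1 cells it stood at 85.9 CPM (80.5 to 91.7) and 134.9 CPM (131.1 to 138.8), 1.57-fold higher. SLC38A9, the lysosomal arginine sensor that signals to mTORC1, stood at 51.2 then 82.2 CPM in H9 cells and 65.5 then 99.0 CPM in 56A1 cells, with log2 changes of 0.67 and 0.59. The lysosomal carriers SLC36A1 and SLC38A7 went the other way. SLC36A1 had log2 changes of -0.75 and -0.91 and SLC38A7 of -0.75 and -1.10 in human and cynomolgus cells.

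SLC38A6 and SLC43A1 stood far apart in level between the lines at both times. SLC38A6 stood at 27.5 then 41.1 CPM in H9 cells and at 205.5 then 286.5 CPM in 56A1 cells, with log2 changes of 0.56 and 0.48. SLC43A1 (LAT3), a facilitative carrier of leucine and other large neutral amino acids, stood at 8.74 CPM (7.78 to 9.78) before induction and 0.366 CPM on day 7 (0.209 to 0.594) in H9 cells, 23.9-fold lower. 56A1 cells had 116.3 CPM (110.0 to 123.0) and 67.6 CPM (64.9 to 70.4), 1.72-fold lower. The cynomolgus copy of SLC43A1 was seen in H9 cells at 2.62 then 1.14 CPM. SLC38A10 stood at 22.01 then 21.2 CPM in H9 cells and 32.4 then 17.2 CPM in 56A1 cells.

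SLC43A2 (LAT4), a second facilitative carrier of this family, was higher on day 7 in H9 cells, at 10.7 CPM (9.64 to 11.8) and 41.9 CPM (40.0 to 43.9), while its relatives SLC43A1 and SLC43A3 were lower. SLC43A3 stood at 20.9 then 3.61 CPM in H9 cells and had 0 UMIs in 56A1 cells on both days. The upper limits of its intervals in 56A1 cells were 0.345 then 0.106 CPM. The human copy of SLC43A3 was seen in 56A1 cells at 0.936 then 0.115 CPM.

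Glutamate carriers of the SLC1 family, which clear glutamate at synapses in the mature brain, went in several directions. SLC1A3 (ENSG00000079215, ENSMFAG00000024693), the carrier GLAST of radial and astroglial cells, was lower on day 7, at 51.6 CPM (49.3 to 54.1) and 18.8 CPM (17.5 to 20.1) in H9 cells and 65.6 CPM (60.8 to 70.7) and 39.6 CPM (37.5 to 41.8) in 56A1 cells. Astroglial markers summed to 4.70 then 1.40 CPM in H9 cells and 3.09 then 2.28 CPM in 56A1 cells, with GFAP and AQP4 under 0.66 CPM in every group. SLC1A1 (EAAT3) was nearly level, at 14.3 then 15.9 CPM in H9 cells and 14.1 then 16.4 CPM in 56A1 cells. SLC1A2 (EAAT2) stood at 5.11 then 7.18 CPM in H9 cells and 2.43 then 9.27 CPM in 56A1 cells, with log2 changes of 0.42 and 1.58.

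SLC1A6 (ENSG00000105143, ENSMFAG00000003076), the carrier EAAT4 known from cerebellar Purkinje cells, had opposite changes in the 2 lines. It started at nearly the same level, 17.2 CPM (15.8 to 18.6) in human and 15.7 CPM (13.4 to 18.3) in cynomolgus day 0 cells. On day 7 it stood at 29.4 CPM (27.8 to 31.0) in H9 cells and 1.01 CPM (0.704 to 1.41) in 56A1 cells, a log2 change of 0.74 against -3.06. With every cell reduced at random to 2500 UMIs of its own species (thinning), 3.52% of human and 3.79% of cynomolgus cells had an SLC1A6 UMI on day 0, and 7.32% and 0.200% on day 7. Unthinned, these shares were 10.6%, 7.84%, 14.4% and 0.541%, at median depths of 7021, 5197, 4965 and 4713 UMIs. The human copy was seen in 1.10% of thinned cynomolgus cells on day 0 and 0.266% on day 7, and the cynomolgus copy in 0.170% and 0% of human cells. 56A1 cells held the human copy at 3.93 CPM on day 0, 22.9% of its level in H9 cells where the median over the transporters was 4.85%. With both genomes' copies summed, the cynomolgus log2 change was -2.71.

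In the SLC6 family the taurine carrier was lower and the creatine carrier higher on day 7. SLC6A6 (ENSG00000131389, ENSMFAG00000038570), which imports taurine, stood at 56.1 CPM (53.6 to 58.6) and 17.0 CPM (15.8 to 18.3) in H9 cells, 3.30-fold lower. 56A1 cells had 86.3 CPM (80.8 to 92.1) and 14.5 CPM (13.3 to 15.9), 5.93-fold lower. SLC6A8 (ENSG00000130821), the creatine carrier, stood at 45.2 CPM (43.0 to 47.5) and 133.4 CPM (130.0 to 136.9) in H9 cells, 2.95-fold higher.

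SLC6A16 (ENSG00000063127), an orphan member of the family, had the largest increase among the 34 transporters measured in H9 cells, from 6.03 CPM (5.24 to 6.90) to 47.3 CPM (45.3 to 49.4), 7.85-fold higher. In 56A1 cells it stood at 3.18 CPM (34 UMIs) and 3.58 CPM (124 UMIs). After thinning, 1.44% of human cells on day 0 and 10.6% on day 7 had an SLC6A16 UMI, against 0.948% and 0.832% of 56A1 cells. The human copy was found in 0% and 0.133% of all thinned 56A1 cells. Unthinned shares were 3.73% and 20.5% of human cells and 1.59% and 1.84% of cynomolgus cells.

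The glycine carrier SLC6A9 (GLYT1) was lower in both lines, at 9.89 then 4.71 CPM in H9 cells and 12.5 then 5.34 CPM in 56A1 cells. SLC6A11 (GAT3), a GABA carrier, stood at 3.98 then 7.57 CPM in H9 cells and 9.73 then 4.59 CPM in 56A1 cells. SLC6A15, a carrier of branched chain amino acids and proline, stood at 12.2 then 16.7 CPM in H9 cells and 9.27 then 4.88 CPM in 56A1 cells. Both were thus higher in H9 and lower in 56A1 cells on day 7. The other 24 transporter genes stayed under 5 CPM in each group, at most 3.98 CPM, among them the carriers of noradrenaline, dopamine and serotonin (SLC6A2, SLC6A3 and SLC6A4) and SLC6A14, which had 0 UMIs in every group.

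The species agreed in sign for 26 of the 29 transporters measured in both (89.7%), where 76% of 9094 shared genes did. The exceptions were SLC1A6, SLC6A11 and SLC6A15. At least 2-fold lower in both lines were 8 of 29, namely SLC1A5, SLC38A5, SLC6A6, SLC7A5, SLC7A6, SLC7A7, SLC7A8 and SLC7A11, where 6.12% of shared genes were. None of the 29 stood at least 2-fold higher in both (7.18% of shared genes) or changed at least 2-fold in opposite directions (0.759%). Both species come from the same 2 libraries, so these agreements share whatever belongs to a library, and no test was possible.

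**Figure D2:**
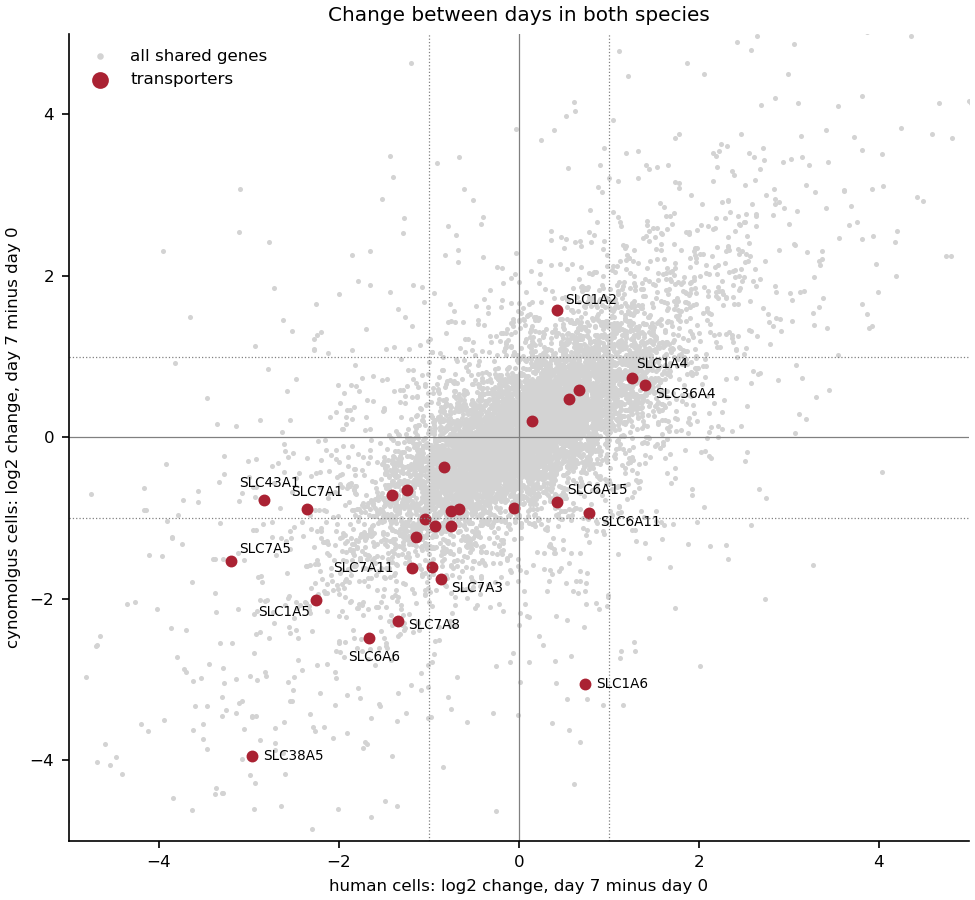
Log2 change from day 0 to day 7 in H9 cells (x axis) and cynomolgus cells (y axis) for 29 transporters in red and all 9094 shared genes in grey, of which 48 lie outside the plotted range. Dotted lines mark 2-fold. Most red points lie at the lower left, and SLC1A6 lies at 0.74 and -3.06.

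The size of the change differed between the lines for some members and hardly for others. The log2 changes were at least 1 apart for 7 of 29 transporters, where 15.1% of shared genes were. The cynomolgus change was above the human one by 2.06 for SLC43A1, 1.67 for SLC7A5, 1.46 for SLC7A1 and 1.16 for SLC1A2. It was below by 3.80, 1.72 and 1.23 for SLC1A6, SLC6A11 and SLC6A15. SLC43A1, SLC7A5 and SLC7A1 were thus lower in both lines, and the human line kept a smaller part of each. At the other end, SLC7A6, SLC1A1, SLC38A9, SLC38A6 and SLC7A7 had changes within 0.10 of each other in both lines. In all, the cynomolgus change was above the human one for 10 of 29, where it was for 50.5% of shared genes.

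Shares of cells followed the summed levels. After thinning, SLC3A2 was seen in 53.9% of the 4710 H9 cells of day 0 (95% interval, exact binomial, 52.5% to 55.4%) and in 29.2% of the 7824 cells of day 7 (28.2% to 30.2%). It was seen in 41.5% of 2004 cynomolgus cells on day 0 (39.3% to 43.7%) and 29.2% of 6011 on day 7 (28.0% to 30.3%). SLC7A5 was seen in 9.77% and 0.997% of human cells and 21.6% and 7.47% of cynomolgus cells, SLC1A5 in 32.1% and 8.44% and in 22.5% and 5.61%, and SLC36A4 in 10.8% and 25.4% and in 18.4% and 28.4%. As a background, the copies of these 4 genes were seen in 0.276% to 3.44% of the other species' cells on day 0 and in 0.0256% to 0.599% on day 7. Unthinned, SLC3A2 was seen in 81.3% and 49.7% of human and 66.9% and 47.9% of cynomolgus cells.

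Other genes of amino acid handling were taken from lists, whose counts can be read against the shares of all genes given above. The lists overlap, so their counts are not independent. Among the ATF4 targets, PHGDH, SHMT2 and MTHFD2 are also on the serine list below, ASNS on the glutamine, CHAC1 on the glutathione and SESN2 on the sensing list. ATF4 targets that are no transporters were at least 2-fold lower for 11 of 16 and higher for 0 of 16 in H9 cells (median log2 change -1.67), but lower for 2 and higher for 1 of 13 in 56A1 cells (median 0.17). In H9 cells the glutathione-degrading enzyme CHAC1 stood at 19.5 then 1.01 CPM, the asparagine synthetase ASNS at 89.6 then 15.3 CPM and the transcription factor CEBPB at 67.8 then 12.4 CPM. In 56A1 cells CHAC1 stood at 4.87 then 5.60 CPM, ASNS at 99.2 then 69.6 CPM and the secreted hormone STC2 at 3.74 then 15.2 CPM. The difference between species was not tested.

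The enzymes that load amino acids onto tRNA were lower in H9 cells for 9 of 20 and in 56A1 cells for 1 of 19 by at least 2-fold and higher for none, with medians of -0.84 and -0.36. TARS1, for threonine, stood at 263.6 then 29.7 CPM in H9 cells and 397.6 then 228.8 CPM in 56A1 cells. Serine, glycine and one-carbon genes were at least 2-fold lower for 6 of 11 human and 2 of 8 cynomolgus genes, and higher for 0 and 1 (medians -1.11 and -0.40). GLDC, which breaks down glycine, stood at 113.2 then 99.2 CPM in H9 cells and 56.7 then 187.2 CPM in 56A1 cells. Of glutamine and glutamate genes, 7 of 11 in H9 and 1 of 11 in 56A1 cells were at least 2-fold lower, and 1 and 0 higher (medians -1.12 and -0.50). The glutamine synthetase GLUL, which makes glutamine, was higher on day 7, at 109.8 then 293.3 CPM in H9 and 96.2 then 182.7 CPM in 56A1 cells.

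Arginine and polyamine genes were at least 2-fold lower for 5 of 12 and higher for 2 in H9 cells, and lower for 2 of 9 and higher for 0 in 56A1 cells (medians -0.77 and -0.65). ASS1, of arginine synthesis, stood at 26.7 then 5.76 CPM in H9 and 104.5 then 12.3 CPM in 56A1 cells, while the polyamine acetylase SAT1 stood at 100.03 then 714.9 CPM in H9 cells. Glutathione genes were at least 2-fold lower for 4 of 10 and 4 of 9 and higher for 0 and 1 (medians -0.94 and -0.59), including CBS, which starts cysteine synthesis, at 281.6 then 26.1 CPM in H9 and 115.6 then 40.0 CPM in 56A1 cells. Branched chain genes (medians -0.23 and 0.03), methionine cycle genes (-0.61 and -0.18) and mTORC1 sensing genes (-0.11 and 0.04) had few members past 2-fold. At least 2-fold lower in H9 and 56A1 cells were 1 of 13 and 3 of 14 branched chain, 0 of 7 and 1 of 7 methionine and 0 of 22 and 0 of 20 sensing genes. At least 2-fold higher were 2 and 0, 1 and 1, and 3 and 2 of the same genes. Of the sensing genes, the sestrin SESN3 was higher in both, at 48.1 then 152.8 CPM in H9 and 52.2 then 158.1 CPM in 56A1 cells. Amino acid carriers of other families had 0 of 13 human and 1 of 12 cynomolgus genes at least 2-fold lower and none higher (medians -0.32 and -0.26).

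**Figure D3:**
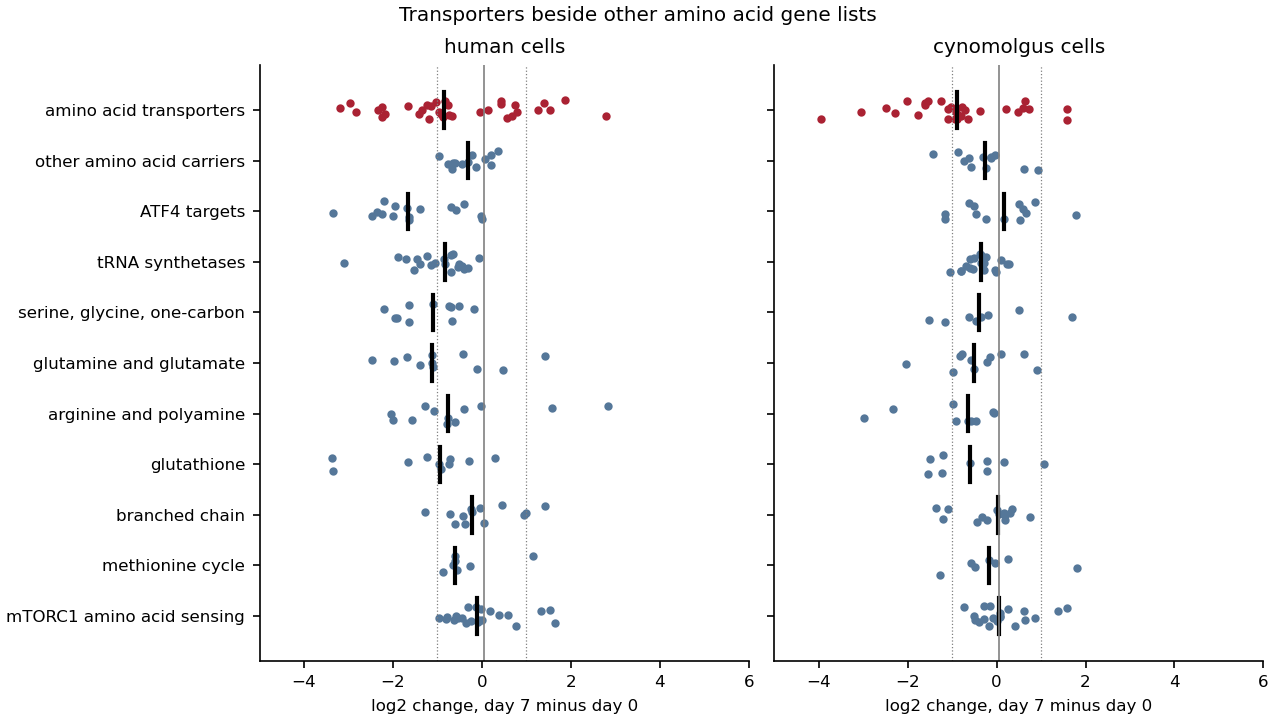
Log2 change from day 0 to day 7 for each measured gene of the transporters (red) and of 10 other amino acid gene lists (blue), which partly overlap. H9 cells are on the left and cynomolgus cells on the right. Black bars are list medians, the grey line is the median of all measured genes and dotted lines mark 2-fold. The transporter medians are -0.85 and -0.90, while the ATF4 target medians are -1.67 and 0.17.

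Within each species and day, cells were ranked by the share of their UMIs on ATF4 targets that are no transporters, and split into tertiles. SLC7A11 and SLC1A5 were higher in the top than in the bottom tertile in all 4 groups, while SLC7A8 was lower or level. SLC7A11 stood at 60.5 CPM in the bottom and 112.0 CPM in the top tertile of human day 0 cells, a ratio of 1.85 (counting interval 1.69 to 2.04), and at 31.3 and 44.5 CPM on day 7, a ratio of 1.42 (1.26 to 1.61). In 56A1 cells the ratio was 1.49 (1.17 to 1.90) on day 0, and 4.65 (3.45 to 6.37) on day 7, from 5.04 to 23.4 CPM. SLC1A5 had ratios of 1.46 and 1.39 in H9 and 1.28 and 3.50 in 56A1 cells on days 0 and 7.

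Several other heterodimer and cationic carriers, but not each of them, were higher in the top tertile on cynomolgus day 7. SLC7A3 stood at 13.5 CPM in the bottom and 32.9 CPM in the top tertile (ratio 2.44, 2.01 to 2.99), SLC7A1 at 41.3 and 81.9 CPM (1.98, 1.77 to 2.23), SLC7A5 at 25.4 and 49.7 CPM (1.96, 1.69 to 2.27) and SLC3A2 at 122.2 and 173.5 CPM (1.42, 1.32 to 1.52). The cationic SLC7A2 had a ratio of 1.05 there (0.920 to 1.19) and the light chain SLC7A6 of 0.877 (0.577 to 1.33), both with intervals that span 1. SLC38A2 had a ratio of 1.23 there (1.07 to 1.41). In the other groups its intervals spanned 1, with ratios of 1.005 and 1.077 on human days 0 and 7 and 0.875 on cynomolgus day 0. On human day 0 SLC7A5 had a ratio of 1.57, SLC3A2 of 1.45 and SLC43A1 of 1.97. In contrast SLC36A4 had ratios of 0.912 and 1.001 in H9 and 0.808 and 0.906 in 56A1 cells, and SLC7A8 of 0.923 and 0.778 and of 0.977 and 0.784.

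Tertiles are ranges of a score, with no gap between them. The score used 17 human or 14 cynomolgus genes, and its range differed between groups. Its bottom and top tertiles stood at 904.7 and 2483 CPM on human day 0 and 144.6 and 887.9 CPM on human day 7. In 56A1 cells they stood at 272.7 and 1102 CPM on day 0 and 100.6 and 972.6 CPM on day 7. The top and bottom cells held median depths of 6166 and 6183 UMIs on human day 0, 4832 and 4322 on human day 7, 4873 and 4849 on cynomolgus day 0 and 4866 and 4303 on cynomolgus day 7. The bottom tertile held 56, 1153, 103 and 1276 cells with no UMI on these genes. The part of depth, of cell cycle or of the unlike score ranges in these ratios was not tested.

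**Figure D4:**
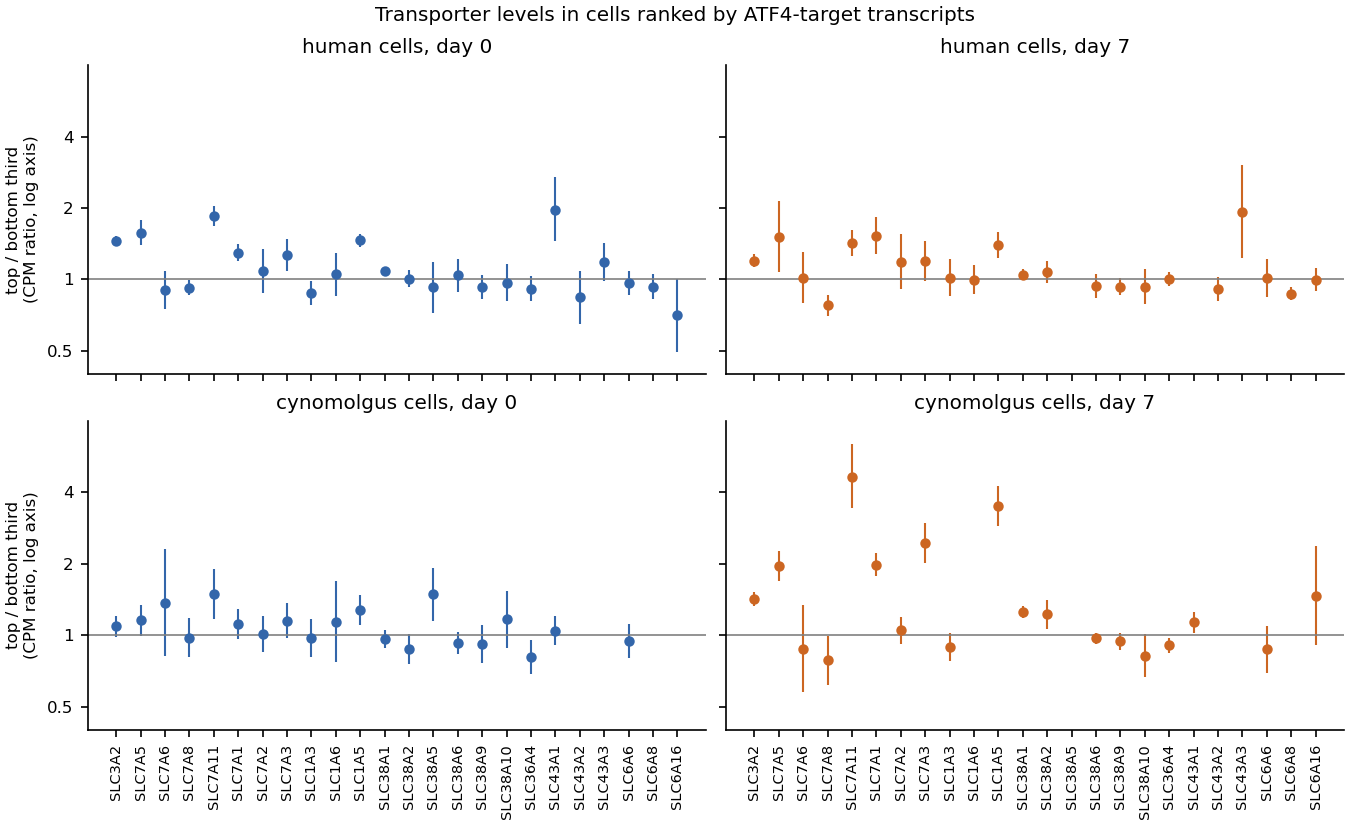
Ratio of a transporter's CPM in the top over the bottom tertile of cells ranked by ATF4-target UMIs, on a log axis, for each species and day. Bars are exact 95% intervals for counting error, and members that reached 20 CPM in a group are shown where both tertiles hold at least 20 UMIs. In cynomolgus day 7 cells SLC7A11 reaches 4.65 and SLC1A5 3.50.

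Day 0 was not uniform: 369 human and 40 cynomolgus cells held 2 or more UMIs of the early neural genes SIX3, SIX6, RAX, PAX6 and LHX2. In the human marker cells several transporters lay between the other day 0 cells and day 7. SLC1A5 stood at 95.9 CPM there (82.7 to 110.5), 181.2 CPM in other day 0 cells and 36.3 CPM on day 7. In the same order SLC7A1 stood at 61.0 (50.7 to 72.9), 104.4 and 19.2 CPM, and SLC7A5 at 34.3 (26.6 to 43.5), 51.7 and 4.62 CPM.

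Of the genes higher on day 7, SLC6A16 stood at 21.2 CPM in the marker cells (15.3 to 28.6), 5.11 CPM in other day 0 cells and 47.3 CPM on day 7. SLC36A4 stood at 71.6, 46.3 and 127.6 CPM and SLC6A8 at 73.2, 43.5 and 133.4 CPM in the same order. SLC43A2 was not apart, at 11.6 CPM (7.36 to 17.4) and 10.6 CPM on day 0. A few went against the later direction: SLC7A8 stood at 187.2 CPM (168.6 to 207.2) in marker cells and 132.8 CPM in others, and SLC38A2 at 139.2 CPM (123.3 to 156.7) and 97.99 CPM. SLC3A2 did not differ beyond counting error, at 339.5 CPM (314.4 to 366.2) and 346.7 CPM (340.4 to 353.2).

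The marker cells also held less of the pluripotency factor POU5F1, 545.4 against 1245 CPM, and more of the neural factor SOX11, 334.0 against 93.9 CPM. Their median depth was 4897 UMIs against 7163, and its part in these values was not tested. On day 0, 289 human cells held exactly 1 marker UMI and 95 exactly 2, so cells near the limit are many. The 40 cynomolgus cells gave 249351 UMIs, too few for most members. SLC1A3 stood at 132.3 CPM (91.1 to 185.9) in them and 64.0 CPM (59.3 to 69.1) in others. SLC38A2 was also higher in them, at 200.5 (148.8 to 264.4) against 110.2 CPM. Lower were SLC1A5, at 56.1 (30.7 to 94.2) against 109.7 CPM, and SLC7A5, at 52.1 (27.8 to 89.2) against 106.9 CPM. So were SLC7A3, at 24.1 (8.83 to 52.4) against 79.1 CPM, and SLC7A11, at 12.0 (2.48 to 35.2) against 40.3 CPM. Leaving these cells out of day 0 gave 13 of 33 H9 members at least 2-fold lower and 5 at least 2-fold higher, and 13 and 2 of 30 in 56A1 cells.

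**Figure D5:**
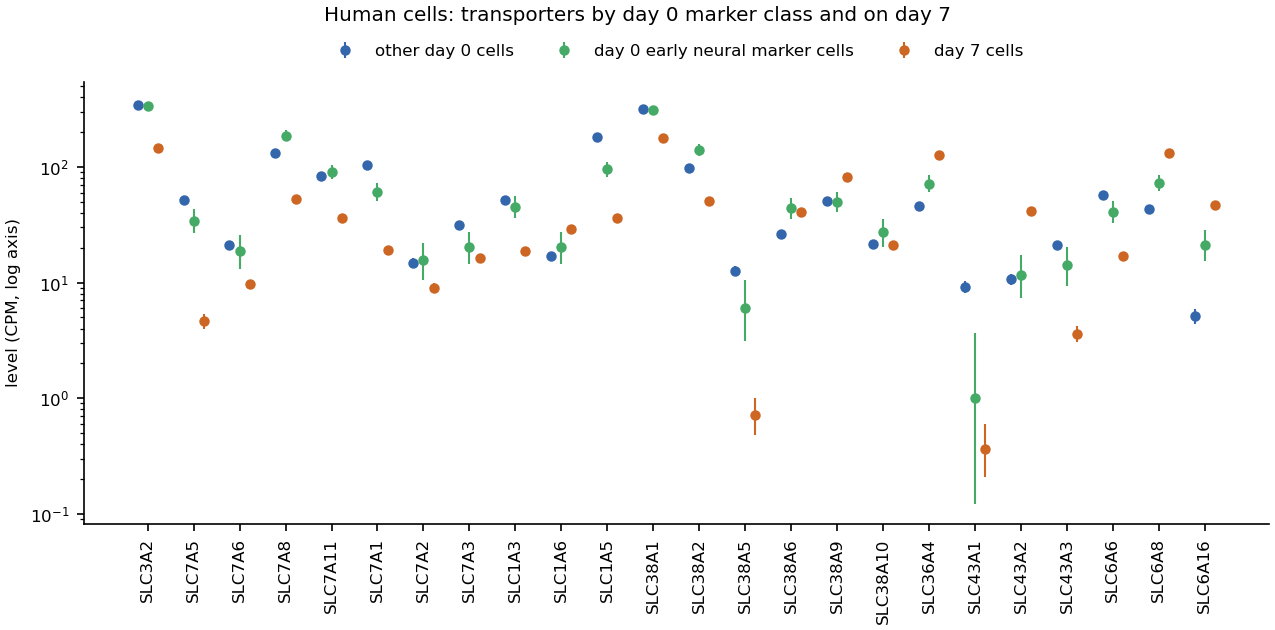
Level of transporters that reached 20 CPM in any group, in H9 cells, in CPM on a log axis: other day 0 cells (blue), day 0 cells with 2 or more early neural marker UMIs (green) and day 7 cells (orange). Bars are exact Poisson 95% intervals. SLC1A5 lies at 181.2, 95.9 and 36.3 CPM and SLC6A16 at 5.11, 21.2 and 47.3 CPM.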

How the data were processed

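The authors deposited 1 matrix of UMI counts for each day, from the 10x Chromium 3′ v3.1 kit, made with Cell Ranger 7.1.0 per the file headers and 7.2.0 per the submitters' processing notes, which also name GRCh38. Gene prefixes name Macaca_fascicularis 6.0 with Ensembl release 107. The sources used here do not give mapping settings, or whether intronic or antisense reads were counted. Genome coordinates and sequences were not used here. One item among the low members is not reported here.

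Barcodes needed 1000 UMIs, 500 genes and a mitochondrial share of 20% or less, and were called human or cynomolgus at 90% of UMIs. Doublets within a species were not removed. Within each species and day, counts were added up over cells and divided by own-species non-mitochondrial UMIs to give CPM. The log2 changes compare CPM + 1 between days, so those of low genes are understated; folds without log2 are plain CPM ratios. Ratios of tertiles have exact binomial intervals for counting error. Shares of cells used 2500 UMIs per cell, so 496 human cells were too shallow on day 0 and 349 on day 7, as were 12 and 456 cynomolgus ones. Named members reached 5 CPM on either day in at least 1 species, apart from some that are named as lying under it. From each other list the 3 with the largest change in a species could be named. The tertile split, the marker cells, the members and the lists were chosen with earlier results of these data known. The calculation of changes was tested on simulated data. Figures used matplotlib 3.10.9; calculations used scipy 1.17.1, numpy 2.4.6 and pandas 2.3.3 under Python 3.11.15. Alternatives covered species call, cell limits, scaling, pseudocount, minimum level, summed genome copies and thinning depth.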

Additional observations from a re-analysis of the deposited data

Results flagged for a closer look

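Transporters whose change had opposite signs in the 2 species, with both counting intervals clear of 0, were SLC1A6, SLC6A11 and SLC6A15. The cynomolgus minus human difference in log2 change was -3.80 for SLC1A6, -1.72 for SLC6A11 and -1.23 for SLC6A15. None of these differences was tested, because no library is replicated. The human log2 changes were 0.74, 0.78 and 0.42 and the cynomolgus ones -3.06, -0.94 and -0.80.

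SLC43A2 and SLC6A8 are not named among the cynomolgus genes, yet cynomolgus cells held UMIs of the human copy. The human copy of SLC43A2 stood at 3.28 then 10.9 CPM in them on days 0 and 7, 30.6% and 25.9% of its level in human cells. The human copy of SLC6A8 was at 3.56 and 3.49 CPM in cynomolgus cells, 7.86% and 2.62% of its level in human cells. For all transporters with 5 CPM or more in human cells, the human copy in cynomolgus cells was at a median of 4.85% of its own level on day 0 and 1.86% on day 7; over all genes the medians were 5.25% and 2.40%, so the SLC6A8 values lie near them.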

How the results depend on the processing

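All of the 34 member changes of at least 2-fold kept their sign under every one of 17 alternatives in which the member was measured, and 25 stayed at least 2-fold. SLC7A6, near the limit in both species, fell under it in 3 human and 4 cynomolgus settings. With a pseudocount of 5 CPM, 0 cynomolgus members were at least 2-fold higher and 9 lower. With a minimum of 20 CPM, 0 of 18 cynomolgus members were at least 2-fold higher and 8 lower, and 15 of 15 shared members had the same sign; here fewer genes are tested. With no minimum level, 43 of 52 shared members had the same sign. Calling species at 80% of UMIs, which gave 4466 cynomolgus day 0 cells, left 10 cynomolgus members at least 2-fold lower. Calling at 95% left 0 cynomolgus cells on day 0, so it has no cynomolgus value. A median-ratio rescaling of day 7 moved the CPM ratio by 0.05 (human) and 0.06 (cynomolgus) in log2, and log2(CPM + 1) changes of low members by less. No paired analysis was possible because each group is 1 library without a replicate number. Depth limits members under 5 CPM, where 3 counts are 0.0686 to 0.281 CPM.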

Other observations

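A few members under 5 CPM still differed between days beyond counting error in at least 1 line; the human SLC7A14 values did not. SLC7A14, a relative of the cationic carriers, was at 2.90 CPM (31 UMIs) on day 0 and 0.260 CPM (9 UMIs) on day 7 in cynomolgus cells, and at 0.808 and 0.503 CPM in human cells. The dopamine carrier SLC6A3 was at 3.09 CPM (33 UMIs) and 0.0866 CPM (3 UMIs) in cynomolgus cells and at 0.692 and 0.0915 CPM in human cells. The light chain SLC7A10, known from brain as a carrier of small neutral and D-amino acids, was at 3.98 and 1.56 CPM in human cells. These 3 were chosen after their values were seen.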
